A study of Mus musculus with 12 samples.

Results

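The genes described here are 10 transcription factors that define or mark T helper, cytotoxic and regulatory T cell lineages, namely Tbx21, Eomes, Runx3, Gata3, Foxp3, Ikzf2, Batf, Maf, Tcf7 and Lef1. They were chosen by name and not by a rule on their values, though with earlier results of these data known. All 10 were among the 556 genes with values in the ileal panel. RNA of the terminal ileum was measured in 12 male C57BL/6 mice at week 7 with the NanoString nCounter mouse immunology panel, which counts hybridized reporter probes without sequencing. The 4 groups held 3 mice each. SPF control mice carried a specific pathogen-free microbiota and received no antibiotic. SPF PAT mice were also specific pathogen-free and were exposed early in life to a course of the macrolide tylosin (PAT, pulsed antibiotic treatment). The paper reports that this course changed the diversity and composition of their microbiota for the whole experiment, so that SPF PAT and SPF control mice differed in microbiota too. GF control and GF PAT mice were germ-free, without or with the same tylosin exposure. The labels give no genetic modification in any group. The SPF litters were bred from purchased parents and the germ-free mice were bred in the study's own facility, so that colony and colonization cannot be told apart, and whole litters were assigned to a treatment while the labels do not tie mice to litters.

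Naive CD4+ T cells become T helper or regulatory T cells when cytokine and antigen receptor signals switch on lineage transcription factors, several of which repress the programmes of the other lineages. T-bet, the product of Tbx21, directs Th1 differentiation, GATA3 directs Th2 differentiation and FOXP3 defines regulatory T cells. In the small intestine these factors are also used outside CD4+ T cells: T-bet and RUNX3 in intraepithelial lymphocytes, EOMES in natural killer cells and GATA3 in innate lymphoid cells. Because whole ileal tissue was measured, fewer cells of a type and less RNA per cell cannot be told apart in any value below.

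Of the 10 genes, 8 have entries in the RefSeq promoter table for GRCm38.p6, with 14 start sites, and Ikzf2 and Maf have none there. The 250 bases before the start site are shown for 3 of the genes that were higher in SPF control than in GF control mice and have entries, Tbx21, Runx3 (the upstream of its start sites) and Batf, since these moved in the same direction. Each is written 5′ to 3′ on the strand of the gene, in GRCm38.p6 coordinates, and capitals mark matches on either strand to the motifs named after the sequences.
Tbx21, chr11:97115332-97115581, minus strand: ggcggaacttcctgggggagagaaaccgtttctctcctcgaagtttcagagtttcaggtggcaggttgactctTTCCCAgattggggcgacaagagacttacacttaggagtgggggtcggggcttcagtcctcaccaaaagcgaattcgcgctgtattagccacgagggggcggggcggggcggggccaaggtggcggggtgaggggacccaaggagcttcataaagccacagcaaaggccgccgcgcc
Runx3, chr4:135120395-135120644, plus strand: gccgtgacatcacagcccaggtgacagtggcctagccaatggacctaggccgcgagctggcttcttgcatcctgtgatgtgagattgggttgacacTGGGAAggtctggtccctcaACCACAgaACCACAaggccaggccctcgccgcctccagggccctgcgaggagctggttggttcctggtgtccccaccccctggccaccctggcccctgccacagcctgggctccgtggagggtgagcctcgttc
Batf, chr12:85686470-85686719, plus strand: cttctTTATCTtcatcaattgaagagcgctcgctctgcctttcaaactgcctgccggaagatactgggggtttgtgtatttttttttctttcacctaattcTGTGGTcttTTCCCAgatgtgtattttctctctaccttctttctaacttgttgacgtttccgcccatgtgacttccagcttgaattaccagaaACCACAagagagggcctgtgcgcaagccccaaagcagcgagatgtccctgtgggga
The Runx3 window holds 2 RUNX matches and 1 Ikaros match, the Batf window 2 RUNX, 1 Ikaros and 1 GATA match, and the Tbx21 window 1 Ikaros match. The window before the other Runx3 start site (chr4:135152295-135152544, not shown) holds 0 matches to any of the motifs. The motifs were searched in all 32851 windows of this length in the table, and each was allowed to overlap another. The letters searched for RUNX were TGTGGT, which 14.0% of the windows hold. For Ikaros they were TGGGAA, held by 21.6% of windows. GATA was searched as AGATAA, present in 9.99% of windows. The Maf search used TGCTGA, found in 16.1% of windows. TCF/LEF was searched as CTTTGA, present in 13.8% of windows. For AP-1 the letters were TGANTCA, found in 6.75% of windows. The forkhead search used GTAAACA, held by 3.17% of windows. T-box was searched as AGGTGTGA, found in 1.12% of windows. A match is a description of the letters and not a binding site.

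All values are log2 normalized counts unless a count is named, and the values of a group are given in the order of mouse numbers, SPF control 2, 7 and 8, SPF PAT 21, 26 and 27, GF control 37, 38 and 39, and GF PAT 41, 42 and 43. Levels are compared between mice and not between genes, because probes differ in efficiency. The total count over all genes was 806043 to 923395 in the SPF control mice and 600308 to 681370 in the other 9 mice. Counts of the 10 genes ranged from 2 to 2015. Maf had 919 to 2015 counts per mouse, Tbx21 185 to 509, Tcf7 122 to 408, Ikzf2 73 to 217, Gata3 80 to 120, Runx3 43 to 211, Batf 35 to 224 and Lef1 14 to 85. Foxp3 had only 6 to 21 counts and Eomes 2 to 12, and counting error alone gives a count of 6 an exact 95% Poisson interval of 2.20 to 13.1 and a count of 2 an interval of 0.242 to 7.22. The pooled SD within groups was 0.15 for Gata3 and Tbx21, 0.17 for Maf and 0.21 for Ikzf2 on the log2 scale, and 0.39 for Runx3, 0.49 for Tcf7, 0.50 for Foxp3, 0.59 for Batf, 0.85 for Eomes and 0.95 for Lef1.

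**Figure D1:**
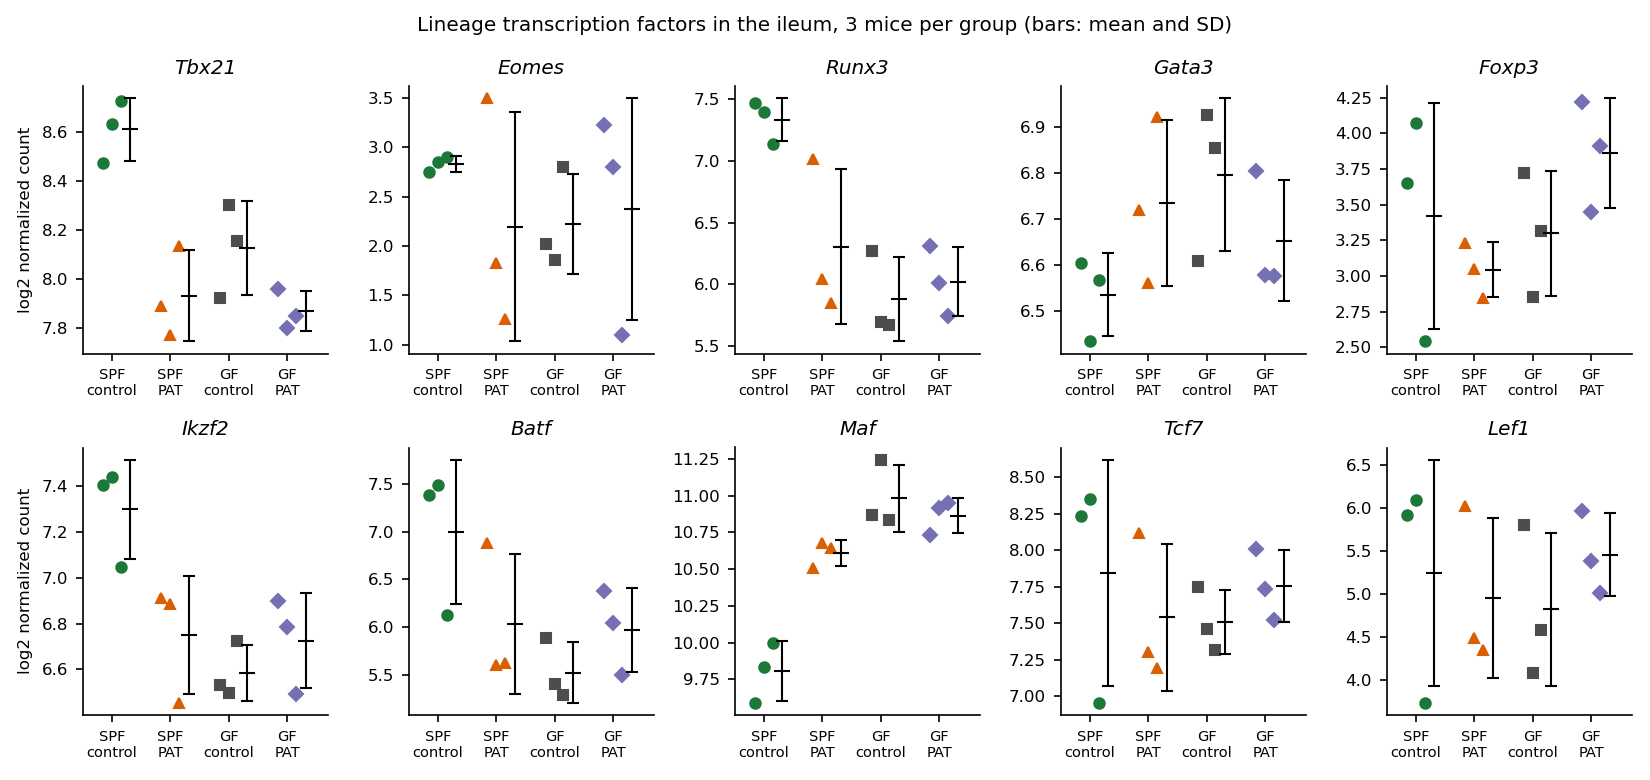
Log2 normalized count (y axes, each with its own range) of the 10 transcription factors in each mouse of the 4 groups (x axes), with the group mean and SD as bars (n = 3). Tbx21, Runx3 and Ikzf2 are highest and Maf is lowest in all 3 SPF control mice, whereas in Batf, Tcf7 and Lef1 SPF control mouse 8 lies below the other SPF control mice.

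SPF control mice were compared with GF control mice to ask how the presence of a microbiota related to these regulators, and SPF PAT mice with SPF control mice to ask what an early antibiotic course left behind. In SPF control mice 4 of the 10 genes, Runx3, Batf, Ikzf2 and Tbx21, were higher than in GF control mice and 1, Maf, was lower (limma, adjusted p under 0.05 over 556 genes). Across all 556 genes 42.1% passed this threshold, 19.4% higher and 22.7% lower. The values of 6 of the 10 did not overlap between these groups, against 52.2% of all genes, so that the share of these genes that differed was near that of the panel. In SPF PAT against SPF control mice the directions were the opposite for the genes called: Tbx21, Runx3 and Ikzf2 were lower and Maf was higher, 4 of 10 against 26.3% of all genes (14% higher and 12.2% lower). Here 4 of the 10 did not overlap, against 41% of all genes. These signs depend on the scaling of each mouse, which left the median difference over all genes at 0.08 and -0.02. When mice were centred on their CD3 genes, 8 of the 10, all but Maf and Gata3, changed sign in both comparisons. That centring shifts every gene alike, by -1.94 in the first comparison and 1.37 in the second, and 47.7% and 40.1% of all 556 genes changed sign with it. Both comparisons use the same 3 SPF control mice, so that opposite signs are partly built in. The median difference of the 10 genes was 0.46 between SPF control and GF control mice (0.08 over all genes) and -0.46 between SPF PAT and SPF control mice (-0.02 over all genes).

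**Figure D2:**
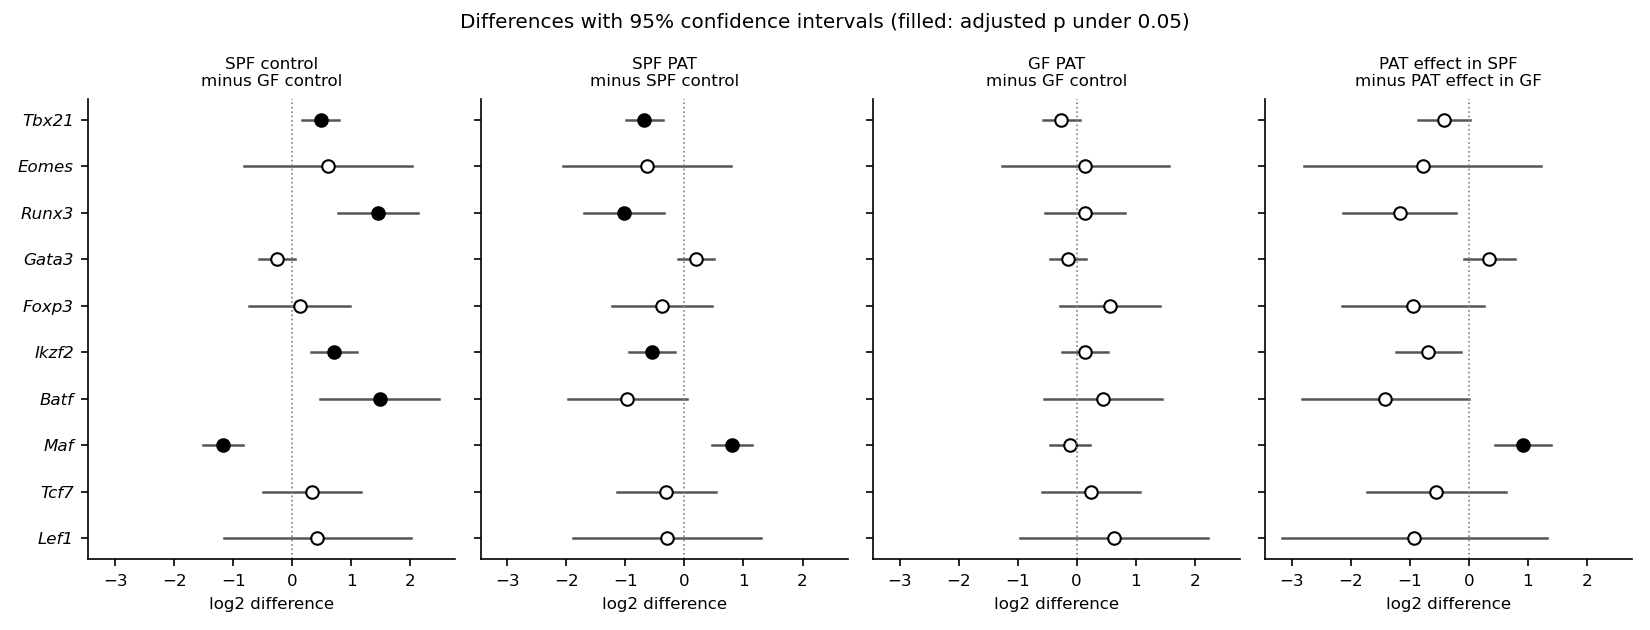
Log2 difference (x axes) of the 10 transcription factors (y axis) in 4 comparisons, with 95% confidence intervals from limma. Filled points passed an adjusted p of 0.05, which 5 genes did in the first panel, 4 in the second, 0 in the third and 1, Maf, in the fourth.

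Among the factors of type 1 and cytotoxic cells, Tbx21 measured 8.47, 8.64 and 8.73 in SPF control mice, 7.89, 7.77 and 8.13 in SPF PAT mice, 7.92, 8.30 and 8.16 in the GF control group and 7.96, 7.80 and 7.85 in the GF PAT group. Every SPF control mouse was above the other 9 mice. The mean of Tbx21 was 8.61 ± 0.13 (SD, n = 3) in SPF control mice, 7.93 ± 0.19 in SPF PAT mice, 8.13 ± 0.19 in the GF control group and 7.87 ± 0.08 in the GF PAT group. Tbx21 was 1.40-fold higher in SPF control than in GF control mice (log2 difference 0.48 ± 0.14 SE, adjusted p = 0.0198) and 1.60-fold lower in SPF PAT than in SPF control mice (-0.68 ± 0.14 SE, adjusted p = 0.00833). When every mouse was centred on the median of its genes, neither difference passed (0.04, adjusted p = 0.899, and -0.33, adjusted p = 0.348). The difference from GF control mice also lost its call without SPF control mouse 7 or 8 or GF control mouse 37 (adjusted p between 0.0523 and 0.0616), with quantile normalization (0.26, adjusted p = 0.246), with only the groups compared in the fit (adjusted p = 0.0616) and with Tukey HSD after a one-way analysis of variance, the test of the study's methods (adjusted p = 0.0673).

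Runx3, which represses the CD4 programme in cytotoxic T cells, measured 7.47, 7.40 and 7.14 in SPF control mice, 7.02, 6.05 and 5.85 in SPF PAT mice, 6.27, 5.69 and 5.67 in the GF control group and 6.31, 6.01 and 5.74 in the GF PAT group. The SPF control mice were again above all others, with SPF PAT mouse 21 next at 7.02. The difference of 1.46 ± 0.30 SE between SPF control and GF control mice, a 2.74-fold change, had an adjusted p of 0.00445. SPF PAT mice were 2.04-fold lower than SPF control mice (-1.03 ± 0.30 SE, adjusted p = 0.0357). This last call was lost when any of SPF PAT mice 26 and 27, SPF control mice 2 and 7 or GF PAT mouse 42 was left out, with adjusted p between 0.0540 and 0.135. It was also lost with median centring (-0.67, adjusted p = 0.0545), with scaling to the total count (adjusted p = 0.0611), with only the groups compared in the fit (adjusted p = 0.102) and with Tukey HSD (adjusted p = 0.196).

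Eomes, a relative of T-bet in natural killer and memory CD8+ cells, measured 2.75, 2.85 and 2.90 in SPF control mice, 3.50, 1.82 and 1.26 in SPF PAT mice, 2.02, 1.85 and 2.80 in the GF control group and 3.22, 2.80 and 1.10 in the GF PAT group. The groups overlapped in both main comparisons, and at 2 to 12 counts per mouse the 95% confidence interval of the difference between SPF control and GF control mice ran from -0.81 to 2.03. Genes tied to these factors were a list of Th1 and cytotoxic effector genes, of which 21 were measured. In SPF control against GF control mice 15 of the 21 were higher and 0 lower (all genes: 19.4% and 22.7%). The 3 with the smallest p were Gzmb (3.48, adjusted p = 1.64e-05) and Gzma (2.84, adjusted p = 0.000336), which encode granzymes, and Ccl5 (2.87, adjusted p = 0.000156), which encodes a T cell chemokine. In SPF PAT mice 11 of the 21 were lower than in SPF control mice and 0 higher (all genes: 12.2% and 14%). Gzmb (-2.16), Ccl5 (-1.97) and Gzma (-2.01) again had the smallest p. The median difference of the list was 1.19 in the first comparison (0.08 over all genes) and -0.80 in the second (-0.02 over all genes).

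Gata3, the Th2 regulator, passed no test in any comparison. It measured 6.60, 6.43 and 6.57 in SPF control mice, 6.72, 6.56 and 6.92 in SPF PAT mice, 6.61, 6.93 and 6.85 in the GF control group and 6.81, 6.58 and 6.58 in the GF PAT group. The SPF control mice lay just below the GF control mice without overlap, by 0.26 ± 0.14 SE (adjusted p = 0.144, 95% confidence interval of the difference -0.57 to 0.04). With median centring this difference was -0.70 (adjusted p = 0.0369) and with quantile normalization -0.71 (adjusted p = 0.0387). SPF PAT mice were not separated from SPF control mice (0.20 ± 0.14 SE, adjusted p = 0.283). Of 12 measured type 2 genes 1 was higher and 3 were lower in SPF control than in GF control mice (all genes: 19.4% and 22.7%). In SPF PAT against SPF control mice 2 of the 12 were higher (all genes: 14%). Il17rb, a subunit of the IL-25 receptor, and Stat6, the signal transducer of IL-4, were lower in SPF control than in GF control mice (-0.83, adjusted p = 0.00208, and -0.75, adjusted p = 0.00266) and higher in SPF PAT than in SPF control mice (0.60, adjusted p = 0.0169, and 0.53, adjusted p = 0.0217). The third gene lower in SPF control mice was Il1rl1, the IL-33 receptor (-1.34, adjusted p = 0.00563).

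Of the genes of regulatory T cells, Foxp3 did not pass a test. It measured 3.65, 4.07 and 2.54 in SPF control mice, 3.23, 3.05 and 2.85 in SPF PAT mice, 3.72, 2.85 and 3.32 in the GF control group and 4.22, 3.45 and 3.91 in the GF PAT group. The range of the SPF control mice covered all other mice but GF PAT mouse 41. The difference between SPF control and GF control mice was 0.12 ± 0.38 SE (adjusted p = 0.799) and that between SPF PAT and SPF control mice -0.38 ± 0.38 SE (adjusted p = 0.448), with 95% confidence intervals of -0.73 to 0.97 and -1.23 to 0.47, so that changes of this size were not detectable at 6 to 21 counts. All 3 SPF PAT mice were below all 3 GF PAT mice in Foxp3, but the difference did not pass (-0.82 ± 0.38 SE, adjusted p = 0.504). The share of all genes without overlap between these groups was not computed.

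Ikzf2 encodes Helios, an Ikaros family factor carried by many regulatory T cells and by some intraepithelial lymphocytes. It measured 7.40, 7.44 and 7.05 in SPF control mice, 6.91, 6.88 and 6.45 in SPF PAT mice, 6.53, 6.50 and 6.72 in the GF control group and 6.90, 6.79 and 6.49 in the GF PAT group. The SPF control mice were above the other 9 mice, and the other groups overlapped. Ikzf2 was 1.64-fold higher in SPF control than in GF control mice (0.71 ± 0.17 SE, adjusted p = 0.00910) and 1.46-fold lower in SPF PAT than in SPF control mice (-0.55 ± 0.17 SE, adjusted p = 0.0440). The first call was lost with median centring (0.27, adjusted p = 0.264) and with quantile normalization (0.23, adjusted p = 0.251). The second call lay close to the threshold and held in only 8 of 23 alternative settings. Centring on CD3 genes turned its sign. The call was lost with the sign kept in 14 settings, among them median centring (-0.19, adjusted p = 0.446), the methods' analysis of variance with Tukey HSD (adjusted p = 0.191) and the omission of any mouse other than SPF PAT mouse 21, SPF control mouse 8 and GF PAT mouse 43 (adjusted p between 0.0545 and 0.160). Within a mouse the log2 ratio of Ikzf2 to Foxp3 overlapped between groups in all 3 comparisons tested. Of 15 measured genes tied to regulatory T cells, 3 were higher and 1 lower in SPF control than in GF control mice (all genes: 19.4% and 22.7%). In SPF PAT against SPF control mice 2 of the 15 were lower (all genes: 12.2%). The inhibitory receptor genes Tigit and Ctla4 moved in both comparisons (Tigit 2.24, adjusted p = 4.55e-05, and -0.72, adjusted p = 0.0217; Ctla4 1.90, adjusted p = 0.00335, and -1.24, adjusted p = 0.0370). Nt5e, which encodes the ectoenzyme CD73, was the gene that was lower in SPF control mice (-1.33, adjusted p = 0.0108).

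Batf and Maf, which both act in Th17 and follicular helper T cells, differed in opposite directions. Batf, an AP-1 family factor, measured 7.38, 7.49 and 6.13 in SPF control mice, 6.88, 5.60 and 5.62 in SPF PAT mice, 5.88, 5.40 and 5.28 in the GF control group and 6.37, 6.04 and 5.49 in the GF PAT group. SPF control mouse 8 lay more than 1 log2 unit below the other SPF control mice and still above all GF control mice. Batf was 2.79-fold higher in SPF control than in GF control mice (1.48 ± 0.45 SE, adjusted p = 0.0236). The difference between SPF PAT and SPF control mice, -0.97 ± 0.45 SE, did not pass (adjusted p = 0.131), but did without SPF control mouse 8 (-1.40, adjusted p = 0.0358) or without SPF PAT mouse 21 (-1.39, adjusted p = 0.0322). The call against GF control mice was lost without SPF control mouse 2 or 7 and without GF control mouse 38 or 39, with adjusted p between 0.0711 and 0.0898, and with Tukey HSD (adjusted p = 0.158).

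Maf, the gene of this group with the most counts, measured 9.59, 9.84 and 9.99 in SPF control mice, 10.51, 10.68 and 10.64 in SPF PAT mice, 10.87, 11.25 and 10.83 in the GF control group and 10.73, 10.91 and 10.95 in the GF PAT group. All SPF control mice were below every other mouse, and the SPF PAT mice lay between them and all 6 GF mice. The group means were 9.81 ± 0.20 (SD, n = 3) for SPF control, 10.61 ± 0.09 for SPF PAT, 10.98 ± 0.23 for GF control and 10.86 ± 0.12 for GF PAT mice. Maf was 2.26-fold lower in SPF control than in GF control mice (-1.18 ± 0.15 SE, adjusted p = 0.000365) and 1.75-fold higher in SPF PAT than in SPF control mice (0.80 ± 0.15 SE, adjusted p = 0.00545). Both calls held in all 23 alternative settings. SPF PAT mice did not pass against GF control mice (-0.37 ± 0.15 SE, adjusted p = 0.419) or GF PAT mice (-0.25 ± 0.15 SE, adjusted p = 0.657).

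Of 14 measured genes tied to Th17 and follicular helper T cells, 4 were higher and 2 lower in SPF control than in GF control mice (all genes: 19.4% and 22.7%). In SPF PAT against SPF control mice 4 of the 14 were lower (all genes: 12.2%). Irf4, a partner of BATF on DNA, was 2.44 higher on the log2 scale (adjusted p = 0.00016) and then 1.22 lower (log2 difference -1.22, adjusted p = 0.00854). The cytokine genes Il22 (2.34, adjusted p = 0.00186, and -1.87, adjusted p = 0.0102) and Il17a (1.68, adjusted p = 0.00531, and -1.38, adjusted p = 0.0217) had the same signs as Batf and not those of Maf. Maf is also made by cells other than T cells. Of 8 measured genes of the small intestinal epithelium 5 were lower and 1 was higher in SPF control than in GF control mice (all genes: 22.7% and 19.4%). In SPF PAT against SPF control mice 5 of the 8 were higher (all genes: 14%). The 5 lower and the 5 higher had the directions of Maf. The mean log2 value of these 8 genes was 11.94 to 12.22 in SPF control mice, 12.40 to 12.71 in SPF PAT mice, 12.71 to 12.91 in the GF control group and 12.50 to 12.74 in the GF PAT group. The genes with the values most like Maf over the 12 mice were Dpp4 (Pearson r = 0.98) and Ccl25 (r = 0.98), both of that list. The part of epithelial RNA in the Maf result was not tested.

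TCF-1, encoded by Tcf7, and LEF1 maintain naive and memory T cells, and neither gene passed a test in any comparison. Tcf7 measured 8.23, 8.35 and 6.95 in SPF control mice, 8.12, 7.31 and 7.20 in SPF PAT mice, 7.74, 7.46 and 7.32 in the GF control group and 8.01, 7.73 and 7.52 in the GF PAT group. Lef1 measured 5.92, 6.09 and 3.73 in SPF control mice, 6.02, 4.49 and 4.35 in SPF PAT mice, 5.80, 4.08 and 4.58 in the GF control group and 5.96, 5.38 and 5.01 in the GF PAT group. In both genes SPF control mouse 8 was the lowest of the 12, and SPF PAT mouse 21, GF control mouse 37 and GF PAT mouse 41 were the highest of their groups. The differences between SPF control and GF control mice were 0.34 ± 0.37 SE for Tcf7 (adjusted p = 0.473) and 0.43 ± 0.71 SE for Lef1 (adjusted p = 0.642). Those between SPF PAT and SPF control mice were -0.31 ± 0.37 SE for Tcf7 (adjusted p = 0.528) and -0.29 ± 0.71 SE for Lef1 (adjusted p = 0.756). Signs of both genes turned with median centring, and without SPF control mouse 8 Tcf7 passed against GF control mice (0.78, adjusted p = 0.0489). Of 7 measured naive and memory genes, 0 were higher and 2 lower in SPF control than in GF control mice (all genes: 19.4% and 22.7%). In SPF PAT against SPF control mice 2 of the 7 were higher (all genes: 14%). These were in both cases Bcl2, a survival gene (-1.19, adjusted p = 0.000685, and 0.64, adjusted p = 0.0217), and Il6ra, the IL-6 receptor (-0.78, adjusted p = 0.00310, and 0.61, adjusted p = 0.0178). The list as a whole had the opposite signs. Its median difference was 0.57 in the first comparison (0.08 over all genes) and -0.24 in the second (-0.02 over all genes).

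The mice that stood apart in Tcf7, Lef1 and Batf stood apart in lymphocyte markers too. The mean log2 value of 11 B cell markers was 8.79, 8.98 and 6.02 in SPF control mice, 8.76, 5.21 and 4.92 in SPF PAT mice, 8.20, 6.20 and 5.12 in the GF control group and 8.81, 8.18 and 7.34 in the GF PAT group. It was low in SPF control mouse 8 and high in SPF PAT mouse 21, as Tcf7 and Lef1 were. Over the 12 mice, with each value taken as its deviation from the group mean, the correlation with the B cell marker mean was 0.95 for Batf, 0.92 for Runx3 and Lef1 and 0.91 for Tcf7, and -0.45 for Tbx21, -0.51 for Maf and -0.26 for Gata3. Of the 11 B cell markers 1 was higher in SPF control than in GF control mice (all genes: 19.4%). In SPF PAT against SPF control mice 1 was lower (all genes: 12.2%). The median difference of the list was nevertheless 1.70 in the first comparison (0.08 over all genes) and -1.59 in the second (-0.02 over all genes), with the wide spread within groups given above. No cell type marker was at a count of 0 in any mouse.

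The mean of 11 T cell markers was 7.11, 7.35 and 6.69 in SPF control mice, 6.52, 5.18 and 4.93 in SPF PAT mice, 6.11, 4.70 and 5.003 in the GF control group and 6.36, 5.89 and 5.58 in the GF PAT group. The SPF control mice were above all others. Of these markers 8 of 11 were higher in SPF control than in GF control mice (all genes: 19.4%). Lower in SPF PAT than in SPF control mice were 7 of 11 (all genes: 12.2%). T cell markers thus moved in the direction of Runx3, Batf, Ikzf2 and Tbx21. With the same deviations from group means, the correlation with the T cell marker mean was 0.96 for Runx3, 0.87 for Lef1 and 0.85 for Batf, but -0.50 for Tbx21. Each point is 1 piece of tissue in which lymphocyte genes vary together, and the part of lymphocyte content in the differences between groups was not tested.

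**Figure D3:**
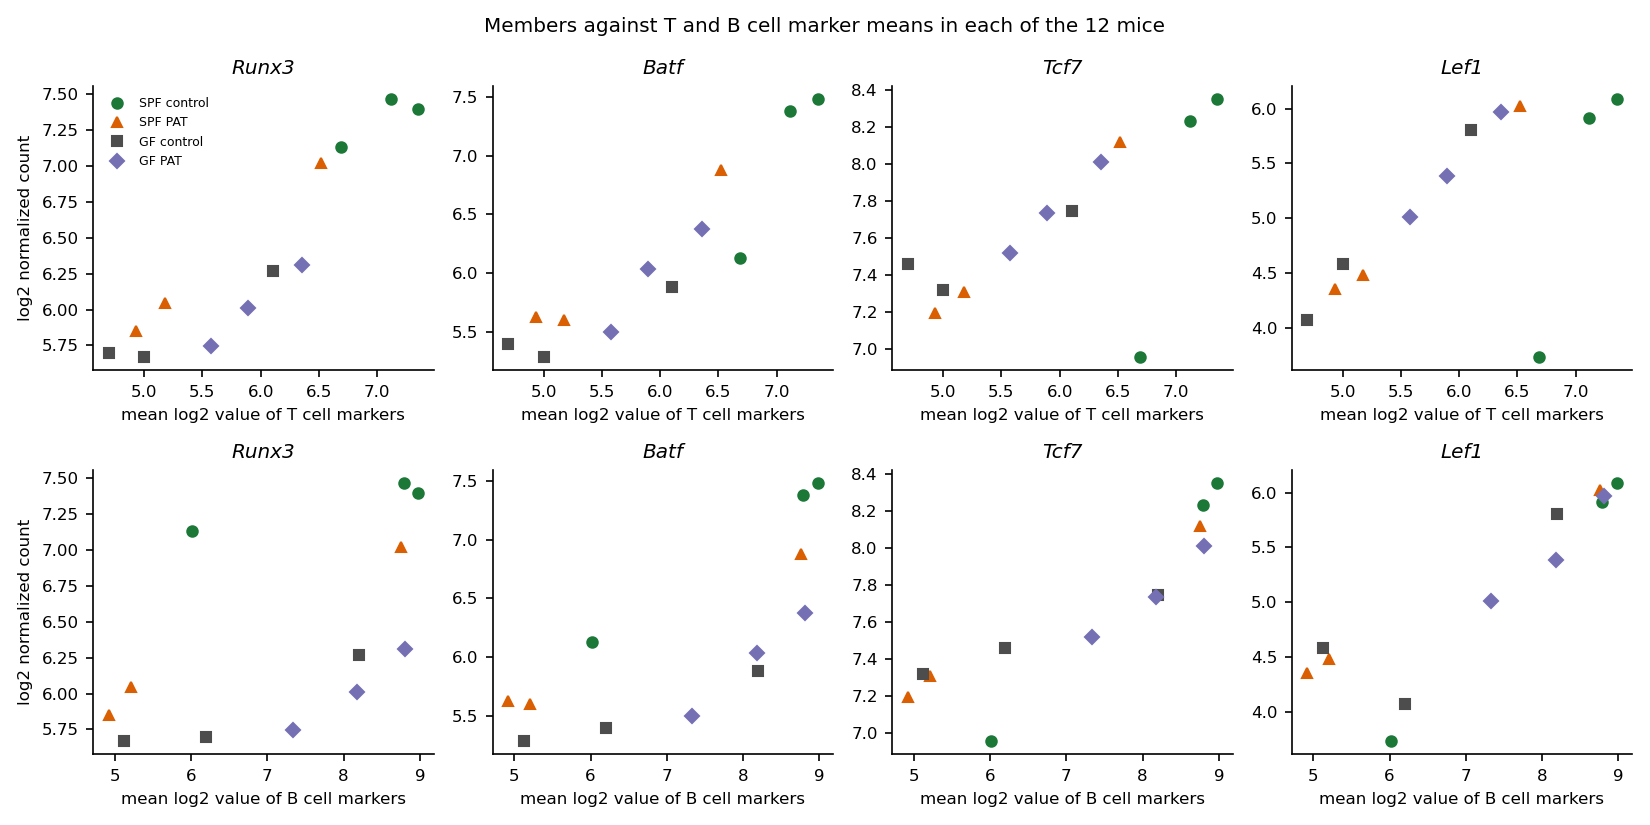
Log2 normalized count (y axes) of Runx3, Batf, Tcf7 and Lef1 in each of the 12 mice against the mean log2 value of T cell markers (upper row, x axes) or B cell markers (lower row, x axes). SPF control mouse 8, with a B cell marker mean of 6.02, is low in Tcf7 and Lef1 while its Runx3, 7.14, stays with the other SPF control mice.

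To set the genes against the T cell content of the tissue, each mouse was also centred on the mean of its 3 measured CD3 chain genes, Cd3d, Cd3e and Cd247. On this scale no member was higher in SPF control than in GF control mice: 8 of 10 were lower with an adjusted p under 0.05, against 73.2% of all genes called in either direction, and Runx3 (-0.48, adjusted p = 0.205) and Batf (-0.46, adjusted p = 0.273) did not pass. In SPF PAT against SPF control mice Maf, Gata3 and Tcf7 were higher relative to CD3 genes, 3 of 10 against 48.4% of all genes, and Runx3 (0.34, adjusted p = 0.403) and Batf (0.40, adjusted p = 0.370) again did not pass. The median over all genes was itself -1.86 and 1.35 in these comparisons, because the CD3 genes differed by more than most genes did.

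In germ-free mice none of the 10 genes passed a test for a PAT effect. Between GF PAT and GF control mice 0 of 10 were called, as were 0% of all genes, and the smallest adjusted p was 0.693. At an unadjusted p under 0.05 there were 0 of the 10 and 28 of 556 genes, and limma's voom on the recovered counts called 0 of the 10 and 1 of the 556. The differences ran from -0.26 ± 0.14 SE in Tbx21 to 0.63 ± 0.71 SE in Lef1, with 0.56 ± 0.38 SE in Foxp3 and 0.45 ± 0.45 SE in Batf. The groups overlapped in each of the 10 genes, and the share of all genes that overlapped was not computed. For Maf the 95% confidence interval ran from -0.45 to 0.22 and for Ikzf2 from -0.25 to 0.53, so that differences as large as those of SPF control mice to GF control mice lay outside them. For Eomes (-1.27 to 1.57) and Lef1 (-0.96 to 2.22) much larger changes could not be detected.

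The difference between the PAT effects in SPF and in GF mice was tested directly. Only Maf passed among the 10 (0.92 ± 0.21 SE, adjusted p = 0.0224), against 17.1% of all genes. Runx3 (-1.17 ± 0.43 SE, adjusted p = 0.0776), Ikzf2 (-0.69 ± 0.25 SE, adjusted p = 0.0732), Tbx21 (-0.42 ± 0.20 SE, adjusted p = 0.141) and Batf (-1.41 ± 0.63 SE, adjusted p = 0.132) did not, so that their PAT effects were not shown to differ between SPF and GF mice. The Maf call was lost without SPF PAT mouse 26 or 27, SPF control mouse 2 or GF PAT mouse 41, with adjusted p between 0.0511 and 0.0606 and a difference of at least 0.81. Without SPF PAT mouse 21, Runx3 (-1.53, adjusted p = 0.0134), Batf (-1.84, adjusted p = 0.0366) and Ikzf2 (-0.77, adjusted p = 0.0459) passed as well, and without SPF control mouse 8 Foxp3 (-1.38, adjusted p = 0.0402), Batf (-1.85, adjusted p = 0.0420) and Ikzf2 (-0.81, adjusted p = 0.0419) did. In a test over all 4 groups Maf (adjusted p = 0.00146), Tbx21 (0.0104), Runx3 (0.0172) and Ikzf2 (0.0376) passed, 4 of 10 against 33.1% of all genes.

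SPF PAT mice were also set against the germ-free groups. No member was called against GF PAT mice (1.44% of all genes were) or against GF control mice (2.16% of all genes were), with smallest adjusted p of 0.504 and 0.419. At an unadjusted p under 0.05 there were 0 of the 10 against GF PAT mice, with 56 of 556 genes, and 1, Maf, against GF control mice, with 61 of 556 genes. The differences from GF control mice ranged from -0.37 in Maf to 0.51 in Batf. A missed threshold does not show that these groups were alike, and for Runx3 the 95% confidence interval of the difference between SPF PAT and GF control mice ran from -0.25 to 1.11.

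Ratios between members within a mouse do not depend on the scaling of the mouse. The log2 ratio of Tbx21 to Gata3, opposing regulators of Th1 and Th2 cells, was 1.87, 2.20 and 2.16 in SPF control mice, 1.17, 1.21 and 1.21 in SPF PAT mice, 1.32, 1.38 and 1.30 in the GF control group and 1.15, 1.22 and 1.27 in the GF PAT group. The SPF control mice stood above the other 9, which lay between 1.15 and 1.38. The difference between SPF control and GF control mice was 0.75, and that between SPF PAT and SPF control mice was -0.88 (exact permutation p = 0.1 in each, two-sided, the smallest that 3 against 3 mice allow, and 0.35 after adjustment over 21 tests). GF PAT mice lay below GF control mice in this ratio by 0.11 without overlap. As deviations from group means, Tbx21 and Gata3 rose together (Pearson r = 0.79). The cells that gave the RNA of these genes were not tested, so this ratio is not a measure of Th1 and Th2 balance.

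The ratio of Batf to Maf was -2.21, -2.35 and -3.87 in SPF control mice, -3.63, -5.08 and -5.02 in SPF PAT mice, -4.99, -5.85 and -5.55 in the GF control group and -4.36, -4.88 and -5.46 in the GF PAT group. It separated SPF control from GF control mice by 2.65 and overlapped between SPF PAT and SPF control mice. Runx3 against Zbtb7b, the factor that fixes the CD4 fate opposed by RUNX3, separated SPF control from GF control mice (2.22) and SPF PAT from SPF control mice (-1.66) without overlap. Zbtb7b itself moved against Runx3 in both comparisons (-0.77, adjusted p = 0.00513, and 0.63, adjusted p = 0.0217). Those are the directions of most of the measured epithelial genes. The mean normalized count of Cd4 went the other way, with 178 in SPF control, 114 in GF control and 114 in SPF PAT mice. The cells that gave the Zbtb7b RNA were not tested, so this ratio is not a measure of CD4 and CD8 fate. In all, 6 of the 21 ratio comparisons did not overlap, and those of Tcf7 to Lef1, Tbx21 to Eomes, Foxp3 to Tbx21 and Ikzf2 to Foxp3 all overlapped. The share of all gene pairs whose ratios do not overlap was not computed, so that this count cannot be set against the panel. No ratio passed the exact permutation test after adjustment (smallest adjusted p = 0.35).

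**Figure D4:**
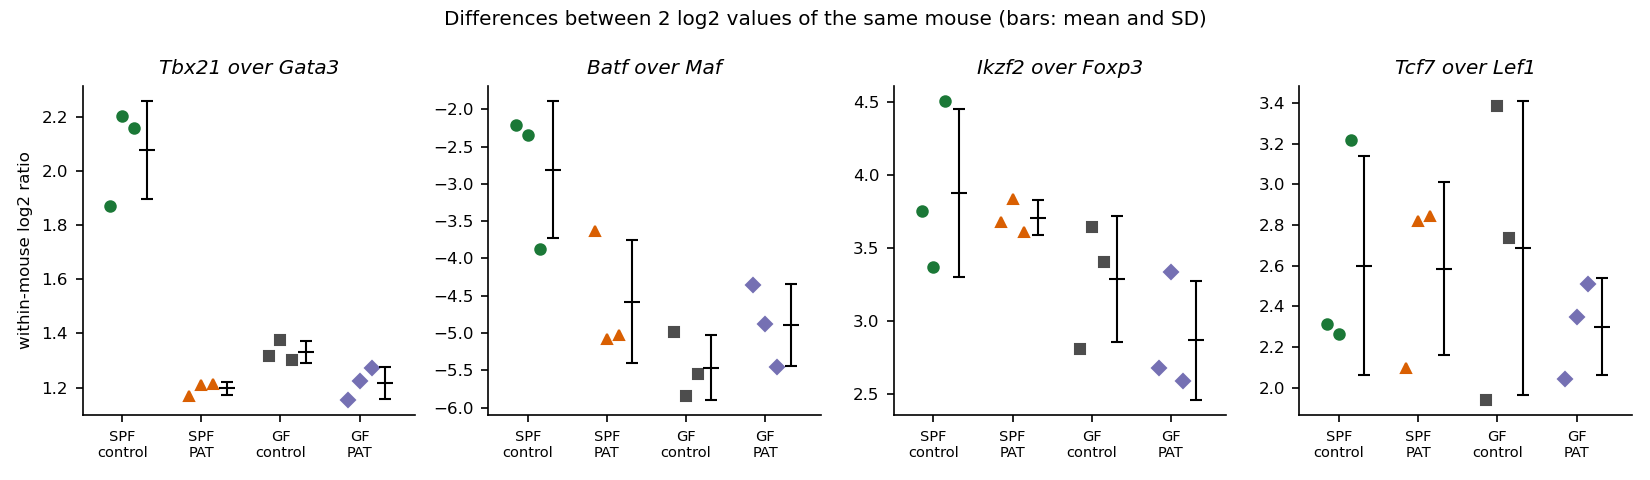
Within-mouse log2 ratio (y axes, each with its own range) of Tbx21 to Gata3, Batf to Maf, Ikzf2 to Foxp3 and Tcf7 to Lef1 in the 4 groups (x axes), with the group mean and SD as bars (n = 3). The Tbx21 to Gata3 ratio is 1.87 or more in the SPF control mice and at most 1.38 in all others, and Tcf7 to Lef1 overlaps in every group.

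The members varied in 2 ways over the 12 mice. Runx3 and Batf (Pearson r = 0.92), Ikzf2 and Runx3 (0.88), Ikzf2 and Batf (0.87) and Tcf7 and Lef1 (0.94) moved together, and Maf moved against Runx3 (-0.91), Ikzf2 (-0.89) and Batf (-0.81). Group differences contribute to these values. Taken as deviations from group means, Tcf7 correlated with Batf (0.97), Lef1 (0.94) and Foxp3 (0.81), whereas Tbx21 no longer correlated positively with Runx3 (-0.43) or Ikzf2 (-0.44) and did so with Gata3 (0.79). Among the measured genes with a mean normalized count of at least 20, the one most like each of 9 members over the 12 mice was Irf1 for Tbx21 (r = 0.96), Tlr1 for Runx3 (0.98), Cd86 for Eomes (0.86), Notch2 for Gata3 (0.81), Zap70 for Ikzf2 (0.93), Icos for Batf (0.97), Dpp4 for Maf (0.98), Cxcl13 for Tcf7 (0.96) and Clu for Lef1 (0.98). The next most like were Nox1, Cd3e, Tnf, Tnfaip6, Itgb2, Lck, Ccl25, Cd83 and Ltb in the same order of members, and Lef1 was among the most like Foxp3 (0.82).

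Among 25 other measured regulators of lymphocyte fate, 7 were higher and 5 lower in SPF control than in GF control mice (all genes: 19.4% and 22.7%). In SPF PAT against SPF control mice 2 of the 25 were higher and 6 lower (all genes: 14% and 12.2%). Among those with the smallest p in the first comparison were Nfil3 (1.89, adjusted p = 0.000125) and Irf4 (2.44), and in the second Irf8 (-0.58, adjusted p = 0.00428) and Irf1 (-0.76, adjusted p = 0.00445). IRF1 acts downstream of interferon, and in SPF PAT against SPF control mice its gene had the sign of Tbx21.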

How the data were processed

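RNA of the terminal ileum of 12 mice was measured with the nCounter mouse immunology panel, and mice were grouped by the labels. The deposited values are log2 normalized counts: the authors normalized counts using DESeq2 (version not given in the sources used here) and log2 transformed them. No reads were aligned, so no genome build applies to the values. The labels give the extraction as TRIzol with an RNeasy cleanup, and the study's methods name another kit.

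Whole counts were recovered from the deposited log2 values with 1 size factor per mouse (0.830 to 1.25), and 100% of the values that are not 0 were whole within 0.01. A count of 0 is deposited as a log2 value of 0. Totals were 600308 to 923395 counts per mouse, with 1 to 8 genes at a count of 0. Another 28 entries, the reference genes and control probes, hold no value, so that no background limit could be set. Probe positions and isoforms are not given, and intervals on counts cover counting error only.

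Differences were tested on the log2 values with limma 3.58.1 (lmFit and eBayes, run in R 4.3.3) in a model of all 12 mice that fitted each group's mean, without a filter or covariate. P-values were adjusted over 556 genes by the Benjamini-Hochberg method within each comparison, with a threshold of 0.05. Where the labels do not show that mice came from separate litters, p-values measure the spread between these mice. Ratios within a mouse were tested by exact two-sided permutation over mice. The 10 genes, the gene lists, the tests and the comparisons were chosen with earlier results of these data known. The genes named are the 10, for each the 2 most similar genes by Pearson r over the 12 mice among those with a mean normalized count of at least 20, and for each list the 3 genes with the smallest p, except that some genes of this rule are not reported here; Zbtb7b entered as the partner of Runx3 in a ratio, and Il1rl1 and Nt5e fall under the list rule. The lists were Th1 and cytotoxic, type 2, regulatory T cell, Th17 and follicular helper, naive and memory, and other lineage regulators, with markers of T, B, plasma, natural killer and innate lymphoid cells, macrophages and dendritic cells, neutrophils and epithelium.

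Alternatives were the methods' analysis of variance with Tukey HSD, an intensity trend, robust estimation, only the groups compared, a mean normalized count of at least 20, median centring, quantile normalization, scaling to the total count, log2 of the normalized count plus 1, voom on the recovered counts, centring on CD3 genes, and leaving out each mouse. The limma step was tested on simulated data. Promoter sequences came from RefSeq (GRCm38.p6). Columns of fold changes or p-values were not used.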

Additional observations from a re-analysis of the deposited data

Results flagged for a closer look

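Maf was the only one of the 10 genes for which a direct test separated the effect of PAT in SPF mice from that in GF mice, which is what singled it out. The PAT effect on the log2 scale was 0.80 in SPF mice and -0.12 in GF mice, and the difference between them was 0.92 ± 0.21 SE (limma, adjusted p = 0.0224, 556 genes). Maf was higher in all 3 SPF PAT mice than in all 3 SPF control mice, and the GF PAT and GF control mice overlapped. Across the alternatives that kept all mice the difference passed in each, and leaving out SPF PAT mouse 26 or 27, SPF control mouse 2 or GF PAT mouse 41 took its adjusted p to between 0.0511 and 0.0606. The epithelial gene list moved with it, with 5 of its 8 genes past the threshold for the same difference, all higher. Of all genes 17.1% passed in either direction. The part of the epithelial genes in the result was not tested.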

How the results depend on the processing

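Calls of Maf between SPF and GF control mice and between SPF PAT and SPF control mice held in all 23 alternatives, and 0 of the 10 genes were called between GF PAT and GF control mice in any. Over the differences of single genes, 789 of 902 kept their direction and side of the threshold, 42 kept the direction and lost the call, 15 gained one and 56 changed sign. CD3 centring shifts every gene of a comparison alike, and by that shift it turned the sign of 8 of the 10 genes in each of the 2 main comparisons. The cause of the other changes was not tested. The number of genes called between SPF and GF control mice was 8 with centring on CD3 genes, 3 with Tukey HSD and 3 to 5 when a mouse was left out. Between SPF PAT and SPF control mice it was 1 with median centring, 2 with scaling to the total count, only the groups compared or Tukey HSD, and 2 to 5 when a mouse was left out. For the difference between PAT effects it was 2 with total scaling, 3 with CD3 centring and 0 to 4 when a mouse was left out, and for the 4-group test 2 with median centring or quantile normalization and 1 to 5 when a mouse was left out. Ratios without overlap numbered 6 to 11 when a mouse was left out, 11 without GF control mouse 37.

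CD3 centring turned the difference between SPF and GF control mice to -1.82 for Foxp3, -1.23 for Ikzf2, -1.46 for Tbx21, -1.33 for Eomes, -0.48 for Runx3, -0.46 for Batf, -1.60 for Tcf7 and -1.51 for Lef1. It turned that between SPF PAT and SPF control mice to 0.99 for Foxp3, 0.82 for Ikzf2, 0.69 for Tbx21, 0.73 for Eomes, 0.34 for Runx3, 0.40 for Batf, 1.06 for Tcf7 and 1.07 for Lef1. Between GF PAT and GF control mice it gave -0.16 for Foxp3, -0.58 for Ikzf2, Eomes and Runx3, -0.28 for Batf, -0.48 for Tcf7 and -0.093 for Lef1, and for the difference between PAT effects 1.15 for Foxp3, 1.40 for Ikzf2, 1.67 for Tbx21, 1.31 for Eomes, 0.92 for Runx3, 0.68 for Batf, 1.54 for Tcf7 and 1.17 for Lef1. Median centring, which moved the median of all genes to -0.36 between SPF and GF control mice and to 0.34 between SPF PAT and SPF control mice, gave Foxp3 -0.32, Tcf7 -0.10 and Lef1 -0.015 in the first comparison and Tcf7 0.049 and Lef1 0.062 in the second. Between GF PAT and GF control mice it gave Ikzf2 -0.047, Eomes -0.042 and Runx3 -0.045, and Tbx21 0.12 for the difference between PAT effects. Quantile normalization gave Foxp3 -0.24 and Lef1 -0.15 between SPF and GF control mice, Foxp3 0.020 and Lef1 0.24 between SPF PAT and SPF control mice, and Ikzf2 -0.027 and Runx3 -0.17 between GF PAT and GF control mice. Total scaling gave Maf 0.0015 between GF PAT and GF control mice.

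Leaving out a mouse gave -0.20 to 0.56 for Foxp3 between SPF and GF control mice, below 0 without SPF control mouse 7 or GF control mouse 38. Lef1 between SPF PAT and SPF control mice ran from -1.05 to 0.13, above 0 without SPF PAT mouse 27 or SPF control mouse 2 or 7. Between GF PAT and GF control mice Eomes ran from -0.28 to 0.78, below 0 without GF PAT mouse 41 or 42 or GF control mouse 38, and Maf from -0.19 to 0.014, above 0 without GF control mouse 38. No paired analysis was possible because the labels number mice without shared numbers between groups. Depth limits Foxp3 and Eomes most, whose counts never passed 21 and 12.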

Other observations

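Across all genes 42.1% were called between SPF and GF control mice and 26.3% between SPF PAT and SPF control mice. Calls among markers of other cells are to be read beside these shares. Of 4 neutrophil genes 3 were higher in SPF control than in GF control mice. S100a9, which encodes a calcium-binding protein of neutrophils, had the smallest p (2.36 on the log2 scale, limma adjusted p = 0.00212). Lower in SPF PAT than in SPF control mice were 2, S100a9 (-1.67, adjusted p = 0.0190) and S100a8 (-2.04, adjusted p = 0.0190). Their counts were low. S100a9 averaged 35.6 normalized counts in SPF control, 10.7 in SPF PAT and 6.91 in GF control mice, and S100a8 25.9, 6.32 and 8.29. Of 7 macrophage and dendritic cell genes only Itgam passed in either comparison (1.26, adjusted p = 0.00629, and -0.90, adjusted p = 0.0440). Of 6 natural killer and innate lymphoid genes only Kit and Ncam1 passed, with the signs of Maf. Kit gave -0.80 (adjusted p = 0.00289) and 0.70 (adjusted p = 0.0102), and Ncam1 -0.85 (adjusted p = 0.00735) and 0.63 (adjusted p = 0.0425). The 6 did not move as a set. Mean normalized counts of Klrk1, Il7r and Klra4 went the other way, and only that of Klra1 went with Maf. Klrk1 averaged 51.4 in SPF control, 41.5 in SPF PAT and 35.8 in GF control mice, and Il7r 123, 106 and 84.8. The cells that gave the Kit and Ncam1 RNA were not tested. Of 3 plasma cell genes Tnfrsf17, the receptor BCMA, was higher in SPF control than in GF control mice (2.65, adjusted p = 0.000336), and Prdm1, the regulator of plasma cell fate, was lower in SPF PAT than in SPF control mice (-0.72, adjusted p = 0.0316).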
